A study of Mus musculus with 10 samples.

Results

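Chemokines and their receptors were read across 6 RNA libraries of primary vascular smooth muscle cells from the mouse aorta. The members were chosen by gene symbol alone: every row of the expression table named Ccl, Cxcl, Cx3cl, Xcl, Ccr, Cxcr, Cx3cr, Xcr or Ackr followed by a digit, apart from Cxcl16 and 2 pseudogene rows of Ccl19, which were at 0 in every library. This gave 62 of 36144 genes, of which 39 encode ligands and 23 encode receptors, with 19 signalling receptors and 4 atypical receptors. Levels are in TPM, a share of the library corrected for transcript length that adds up to 1000000 in each library.

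The cells came from 8-week-old male mice and were grown from the aortic media after removal of the adventitia, in medium with fetal bovine serum, and used between passages 2 and 7. The wild-type group held 3 libraries, and the overexpression group held 3 libraries from mice with Myh11-Cre-ERT2 and Adamts7 overexpression, labelled as specific to vascular smooth muscle cells. Each library carries its own mouse number, so the p-values rest on the spread between 3 mice a group. Myh11-Cre-ERT2 is a Cre recombinase under the promoter of smooth muscle myosin that acts when tamoxifen is given. Neither a driver in wild-type mice nor tamoxifen is mentioned in the labels, so effects of the driver and of Adamts7 cannot be told apart. Passages are given as a range and not by library. The study's title places it in atherosclerosis and in foam cells of smooth muscle origin.

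Chemokines are small secreted proteins that draw leukocytes along a gradient. They are grouped by the spacing of their first cysteines into the CC, CXC, CX3C and XC families, and bind G protein-coupled receptors on the responding cell. Atypical receptors bind chemokines without the usual G protein signal and remove or transport them. In the artery wall, Ccl2 with Ccr2 and Cx3cl1 with Cx3cr1 are known for monocyte entry into atherosclerotic lesions, and Cxcl12 with Cxcr4 for retention and homing of progenitor cells and leukocytes.

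Adamts7, the targeted gene, was at 6.08, 6.18 and 8.20 TPM in wild-type and at 98.7, 79.1 and 75.8 TPM in overexpression libraries. Markers of several cell types were present in the cultures. The 10 smooth muscle markers summed to 4235 to 4379 TPM in wild-type and 4946 to 6772 TPM in overexpression libraries, with Acta2 between 1209 and 2335 TPM and Myh11 between 30.7 and 59.4 TPM. The 12 endothelial markers summed to 4423 to 4934 and 2278 to 3748 TPM. The 16 macrophage markers summed to 477 to 713 TPM in wild-type and 1168 to 3759 TPM in overexpression libraries, with Cd163 at most 0.0506 TPM. The 6 dendritic cell markers summed to 6.14 to 6.76 and 7.71 to 11.3 TPM, with Cd209a at 0, and the 8 fibroblast markers to 35.7 to 61.2 and 27.3 to 54.0 TPM. Of the other leukocytes, the 7 neutrophil markers summed to 0.587 to 1.62 and 0.756 to 1.38 TPM, with S100a9, Retnlg and Elane at 0 in every library, and the 8 T cell markers to 11.5 to 14.0 and 9.04 to 10.3 TPM, of which Lck made 6.49 to 12.4 TPM while Cd3e and Cd2 were at 0 throughout. The overexpression libraries were spread along the first principal component, and overexpression replicate 3 lay nearest to wild type. Its score was -0.67, against 18.6 and 39.4 for overexpression replicates 1 and 2 and -20.3 to -16.8 for wild type. Fold changes of the members that passed only without it, and counts for each gene list, are also given without it.

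Ligand RNA in these cultures was mostly Cxcl12. Of the 39 ligand genes, 12 had a mean of at least 1 TPM in wild type and 16 in overexpression cultures, 30.8% and 41.0%. Of the 23 receptor genes, 6 reached that level in each genotype, 26.1%, against 36.1% and 36.5% of all 36144 genes. Summed over genes, ligand RNA was 923, 901 and 849 TPM in wild-type and 1119, 1087 and 944 TPM in overexpression libraries. Receptor RNA was 66.2, 70.4 and 64.9 TPM in wild-type and 81.3, 82.4 and 81.0 TPM in overexpression libraries, and the groups did not overlap for either sum. Ligands were thus 12.8 to 13.9 times as abundant as receptors in wild-type and 11.7 to 13.8 times in overexpression libraries. Without Cxcl12, the ratio was 1.84 to 2.49 and 1.53 to 2.50, so the excess of ligand RNA rested largely on that gene.

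**Figure D1:**
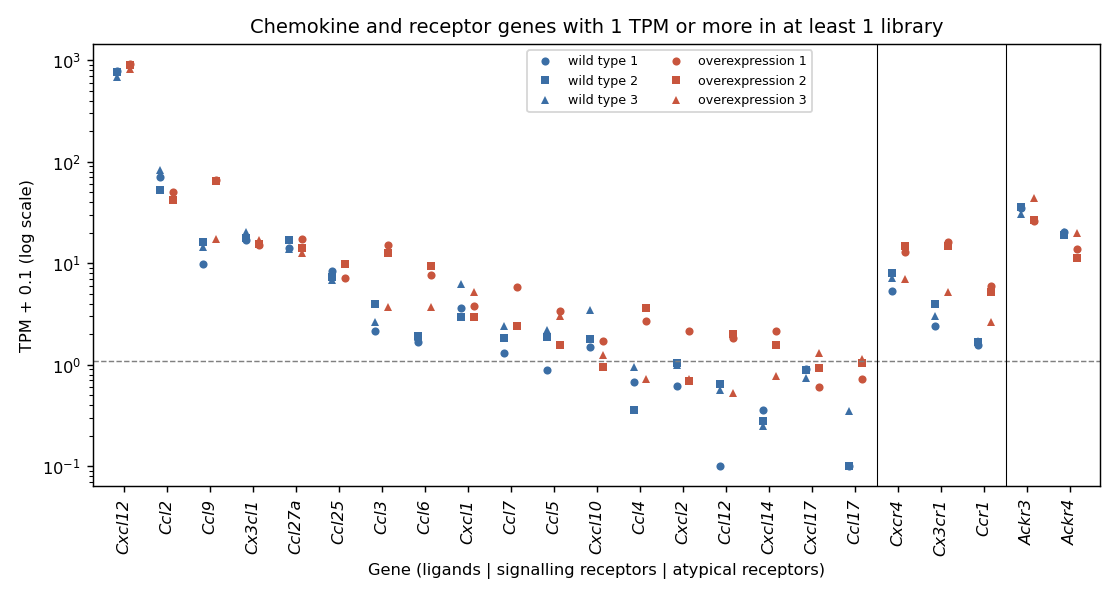
Levels of 23 chemokine and receptor genes with 1 TPM or more in at least 1 library, as TPM + 0.1 on a log scale, with wild-type libraries in blue, overexpression libraries in red and the mouse number as the symbol. The dashed line marks 1 TPM. Cxcl12 stands at 687 to 915 TPM, above every other gene shown, and most of the genes shown are ligands.

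Cxcl12, a CXC chemokine made by many stromal cells that binds Cxcr4 and Ackr3, was at 790, 771 and 687 TPM in wild-type and at 915, 902 and 820 TPM in overexpression libraries. It held 80.9% to 86.8% of the ligand TPM in the 6 libraries and was of rank 174 among 36144 genes by its wild-type mean. Every overexpression library lay above every wild-type library. The means were 749 ± 55.0 and 879 ± 51.6 TPM (SD, n = 3 each). The log2 fold change was 0.23 ± 0.08 (SE), on the log2(TPM + 1) scale used for all fold changes here. The limma adjusted p was 0.187, above the threshold of 0.05, or 0.0894 without overexpression replicate 3. Cxcl12 passed in 1 of 14 alternatives, with libraries weighted by quality, where 20.8% of all tested genes passed.

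The test was run with limma on the 13131 genes whose mean was 1 TPM or more, and 19 of the 62 members were among them. They were 13 ligands and 6 receptors. Ccl4 passed this filter only through its overexpression libraries. None of the 19 passed an adjusted p of 0.05, where 0.0152% of all tested genes did. At an unadjusted p under 0.05, 5 of 13 ligands and 3 of 6 receptors were higher in overexpression cultures, where 10.6% of all genes were, and 1 ligand was lower, where 8.94% were. Ccl4 is 1 of these 5 ligands, which leaves 4 of 12 without it. The median log2 fold change was 0.23 over the tested ligands and 0.85 over the tested receptors, against -0.009 over all tested genes. Over all members with a value above 0, with no filter, the medians were 0.064 and 0.028.

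Without overexpression replicate 3, 9 of the 19 members passed limma's adjusted threshold, where 6.30% of all tested genes did. That library was the overexpression library nearest to wild type, so leaving it out favours larger differences. Without overexpression replicate 1 or 2, 0 members passed. Ccl4, which met the filter only through its overexpression libraries, is among the 9. Ccl9, Ccl6, Ccl3 and Ccl4 among ligands and Cx3cr1, Ccr1 and Cxcr4 among receptors were among those that were higher, where 3.99% of all genes passed in that direction. Ackr4 was lower, where 2.31% did. With libraries weighted by quality, 12 members passed, where 20.8% of all genes did.

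**Figure D2:**
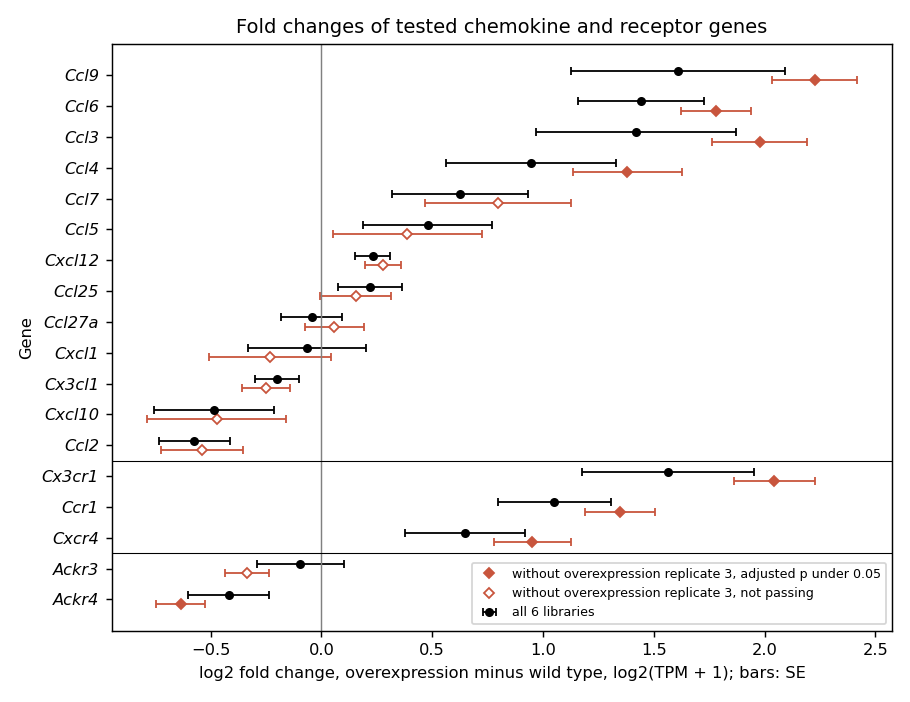
Log2 fold change of 18 tested members, overexpression minus wild type on the log2(TPM + 1) scale with SE bars, over all 6 libraries (black) and without overexpression replicate 3 (red, filled where limma's adjusted p was under 0.05). Ccl9, Ccl6, Ccl3 and Ccl4 lie to the right among ligands and Cx3cr1, Ccr1 and Cxcr4 among receptors, while Ccl2, Cxcl10 and both atypical receptors lie to the left.

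In the test over all 6 libraries, the 4 ligands with the highest log2 fold changes were CC chemokine genes on chromosome 11. That location is not particular to them. Ccl5, Ccl7 and Ccl2, the tested ligand with the lowest log2 fold change, are CC genes on the same chromosome. Ccl9 and Ccl6 are mouse chemokines of the CC family that bind Ccr1, and Ccl3 and Ccl4 are the macrophage inflammatory proteins, of which Ccl3 also binds Ccr1. In GRCm38.p6 (mm10), Ccl9 lies at chr11:83572917-83578636 and Ccl6 at chr11:83587886-83593087, 9249 bases apart. Ccl3 lies at chr11:83647843-83649378, and its interval overlaps that of Ccl4, chr11:83648624-83664683, by 755 bases, so the division of reads between them is uncertain. The intervals of Ccl5, Ccl6, Ccl25, Cx3cl1 and Cx3cr1 each overlap another gene model of the table, and without a stated strand setting their values carry the same uncertainty. The promoters of Ccl6 and Ccl9 are shown because these were the tested ligands of smallest p with a promoter in the table. Those of Ccl3, their neighbour, and Cxcl10, a ligand induced by interferon, were added after their values were seen. They are 300 bases each from RefSeq, from 250 bases before the gene's start, in the gene's direction, at chr11:83593038-83593337, chr11:83578587-83578886, chr11:83649329-83649628 and chr5:92348840-92349139 in GRCm38.p6, all on the minus strand. Capitals mark matches to the motifs named after them.
Ccl6: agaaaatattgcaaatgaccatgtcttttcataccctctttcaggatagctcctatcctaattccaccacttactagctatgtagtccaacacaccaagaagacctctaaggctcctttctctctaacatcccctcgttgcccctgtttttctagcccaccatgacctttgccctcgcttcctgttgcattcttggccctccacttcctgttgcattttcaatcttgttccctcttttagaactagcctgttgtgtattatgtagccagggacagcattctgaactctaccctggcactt
Ccl9: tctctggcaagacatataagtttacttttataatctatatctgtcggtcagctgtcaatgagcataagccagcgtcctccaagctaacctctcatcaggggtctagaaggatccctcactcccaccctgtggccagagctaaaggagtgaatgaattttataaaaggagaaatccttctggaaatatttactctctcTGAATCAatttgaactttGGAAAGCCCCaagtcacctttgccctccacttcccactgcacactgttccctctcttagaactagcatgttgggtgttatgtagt
Ccl3: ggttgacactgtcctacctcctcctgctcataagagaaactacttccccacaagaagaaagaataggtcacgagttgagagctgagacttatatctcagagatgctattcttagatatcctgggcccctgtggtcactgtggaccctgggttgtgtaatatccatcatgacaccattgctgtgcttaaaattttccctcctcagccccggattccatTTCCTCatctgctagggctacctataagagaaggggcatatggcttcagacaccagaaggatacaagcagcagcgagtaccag
Cxcl10: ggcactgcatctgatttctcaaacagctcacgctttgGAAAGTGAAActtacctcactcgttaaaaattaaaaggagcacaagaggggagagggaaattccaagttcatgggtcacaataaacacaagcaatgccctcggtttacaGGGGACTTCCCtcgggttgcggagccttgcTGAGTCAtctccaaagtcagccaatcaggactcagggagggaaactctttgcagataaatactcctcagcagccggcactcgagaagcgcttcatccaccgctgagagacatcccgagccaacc

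Motifs were searched on both strands of each promoter. They were the NF-kB consensus, taken as GGG, a purine, any base, 3 pyrimidines and CC, the AP-1 site TGANTCA, the core of the PU.1 site GAGGAA and the interferon-stimulated response element, taken as GAAA, any 2 bases and GAAA again, which 5.80%, 7.81%, 28.3% and 3.44% of the 32851 promoters in the table hold. The Ccl9 window held an NF-kB match on the reverse strand, GGAAAGCCCC, 35 bases before the start, and an AP-1 match, TGAATCA, 53 bases before it. The Ccl3 window held a PU.1 core on the reverse strand 33 bases before the start, and the Ccl6 window held none of the 4 motifs. The Cxcl10 window held 2 NF-kB matches that overlap, starting 104 and 103 bases before the start, an AP-1 match 74 bases before it and an interferon element 213 bases before it. Of the 19 tested members 14 have a promoter in the table (Ccl2, Ccl4, Ccl5 and Ccl7 are among those that do not), and 4, 3, 4 and 1 of them held the motifs in the order given. A member was counted if any of its promoters matched, and Ccl27a and Ccl25 have several. The shares above are of single promoters, so counts and shares are not directly comparable.

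Ccl9 was at 9.71, 16.1 and 14.2 TPM in wild-type and at 65.2, 64.6 and 17.3 TPM in overexpression libraries. Overexpression replicates 1 and 2 were far above wild type, and replicate 3 was just above the highest wild-type library. The log2 fold change was 1.61 ± 0.48 (SE; limma adjusted p = 0.157), and 2.23 ± 0.19 without overexpression replicate 3 (limma adjusted p = 0.00220). Ccl6 was at 1.57, 1.81 and 1.79 TPM in wild-type and at 7.50, 9.29 and 3.64 TPM in overexpression libraries. It had the smallest p among the members, with a log2 fold change of 1.44 ± 0.28 (SE; limma adjusted p = 0.128), or 1.78 without overexpression replicate 3 (limma adjusted p = 0.00237), and its groups did not overlap. Among tested ligands, all overexpression libraries lay above all wild-type libraries for 3 of 13 (Ccl6, Ccl9 and Cxcl12), where 14.3% of all tested genes did so, and below them for Ccl2, where 12.9% did. With the receptors, 6 of the 19 members had groups that did not overlap, where 27.2% of all genes did.

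Ccl3 was at 2.07, 3.82 and 2.53 TPM in wild-type and at 15.1, 12.5 and 3.62 TPM in overexpression libraries. The third overexpression library fell within the wild-type range, and the log2 fold change was 1.42 ± 0.45 (SE; limma adjusted p = 0.171), or 1.98 without that library (limma adjusted p = 0.00510). Ccl4 was at 0.581, 0.259 and 0.857 TPM in wild-type and at 2.61, 3.49 and 0.630 TPM in overexpression libraries, with the same library inside the wild-type range. Its log2 fold change was 0.95 ± 0.39 (SE; limma adjusted p = 0.241), or 1.38 without it (limma adjusted p = 0.0262).

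The macrophage marker median, like Ccl9, Ccl6, Ccl3 and Ccl4, was above the wild-type mean in every overexpression library. The median difference of the macrophage markers from the wild-type mean was 2.22, 2.03 and 0.69 (log2) in overexpression replicates 1, 2 and 3. For all 15 tested of 16 markers, every overexpression library lay above every wild-type one, where 14.3% of all tested genes did so. Ccl9 had 2.23, 2.22 and 0.38, Ccl3 2.11, 1.85 and 0.31, Ccl6 1.64, 1.92 and 0.77 and Ccl4 1.22, 1.54 and 0.08. In replicate 3, Ccl3 and Ccl4 stayed inside the wild-type range. The part of macrophage RNA in the chemokine values was not tested. In bulk RNA, more cells of a type and more RNA per cell cannot be told apart.

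**Figure D3:**
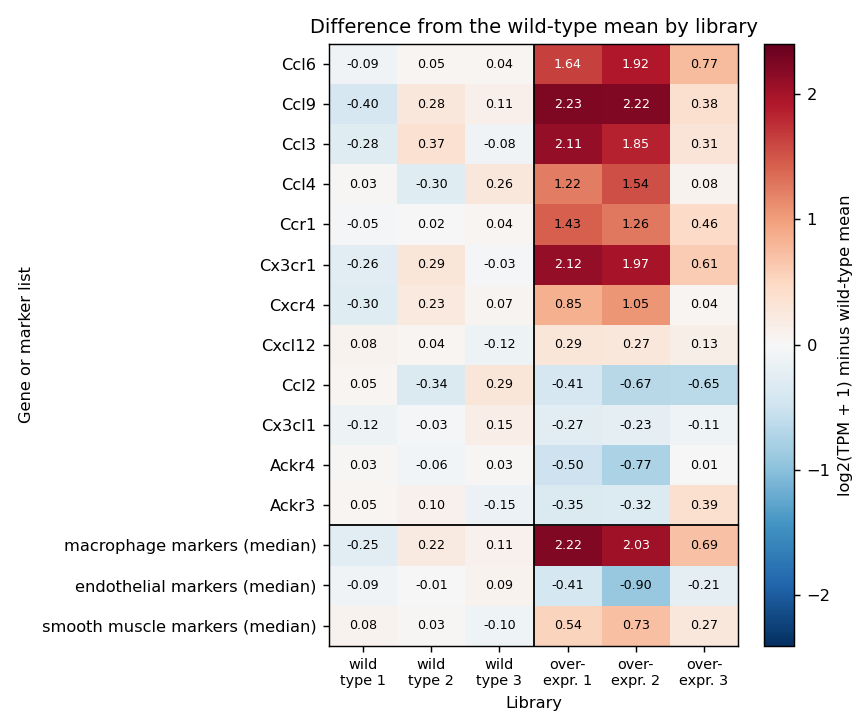
Difference of each library from the wild-type mean, as log2(TPM + 1), for 12 members and for the median of the macrophage, endothelial and smooth muscle markers; red is above and blue below the wild-type mean. Ccl6, Ccl9, Ccl3, Ccr1 and Cx3cr1 are dark in overexpression replicates 1 and 2 and pale in replicate 3, as is the macrophage row.

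Ccl2, the monocyte attractant that binds Ccr2, was at 70.1, 53.1 and 83.0 TPM in wild-type and at 50.7, 42.1 and 42.8 TPM in overexpression libraries. Every overexpression library lay below every wild-type library, with means of 68.7 ± 15.0 and 45.2 ± 4.78 TPM (SD, n = 3 each). The log2 fold change was -0.57 ± 0.16 (SE; limma adjusted p = 0.148), and it stayed between -0.75 and -0.40 over 14 alternatives without passing in any of them. Unlike the genes above, Ccl2 was as low in overexpression replicate 3 as in replicate 2. It lies at chr11:82035577-82037452 with Ccl7 8259 bases away.

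Ccl7, another monocyte attractant that binds Ccr2, did not share that pattern. It was at 1.20, 1.74 and 2.32 TPM in wild-type and at 5.68, 2.33 and 2.30 TPM in overexpression libraries, and its log2 fold change of 0.63 ± 0.31 (SE; limma adjusted p = 0.311) rested on overexpression replicate 1. Without that library it was 0.29. Ccl7 passed in 1 of 13 alternatives, with libraries weighted by quality, where 20.8% of all tested genes passed. Within the CC ligands, Ccl2 held 64.2%, 50.8% and 64.1% of the summed TPM in wild-type and 28.5%, 25.9% and 44.1% in overexpression libraries. Ccl9 held 8.90%, 15.4% and 11.0% and then 36.7%, 39.7% and 17.8%. The most abundant CC ligand was thus Ccl2 in all 3 wild-type libraries and in overexpression replicate 3, and Ccl9 in overexpression replicates 1 and 2.

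Cx3cl1, or fractalkine, a membrane-anchored chemokine of endothelium and other stromal cells, was at 16.7, 17.7 and 20.3 TPM in wild-type and at 14.9, 15.3 and 16.8 TPM in overexpression libraries. The highest overexpression library just exceeded the lowest wild-type one, and the log2 fold change was -0.20 ± 0.10 (SE; limma adjusted p = 0.309). It passed in 1 of 14 alternatives, with libraries weighted by quality. The median difference of the endothelial markers from the wild-type mean was -0.41, -0.90 and -0.21 (log2) in overexpression replicates 1, 2 and 3, and their part in the Cx3cl1 value was not tested.

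Ccl27a, a skin chemokine that binds Ccr10, was at 13.8 to 16.9 TPM in wild-type and 12.4 to 17.3 TPM in overexpression libraries, with a log2 fold change of -0.04 ± 0.14 (SE; limma adjusted p = 0.891). Its interval overlaps Il11ra1, and rows for the near copies Ccl27b and Ccl27 were at 0 or nearly so, so its value is uncertain. Ccl25, the thymic and intestinal ligand of Ccr9, was at 6.73 to 8.23 TPM and 7.09 to 9.79 TPM, with 0.22 ± 0.14 (SE; limma adjusted p = 0.443).

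Cxcl1, a neutrophil attractant that binds Cxcr2, was at 3.55, 2.84 and 6.17 TPM in wild-type and at 3.69, 2.87 and 5.05 TPM in overexpression libraries, and the groups overlapped fully (log2 fold change -0.06 ± 0.27 SE, limma adjusted p = 0.921). Cxcl10, an interferon-induced ligand of Cxcr3 whose interval overlaps Art3, was at 1.40, 1.69 and 3.38 TPM and at 1.62, 0.839 and 1.14 TPM (-0.48 ± 0.27 SE, limma adjusted p = 0.363). Ccl5, a T cell and monocyte attractant, was at 0.786, 1.76 and 2.11 TPM and at 3.29, 1.46 and 2.93 TPM (0.48 ± 0.29 SE, limma adjusted p = 0.407). The libraries of both groups were interleaved for Cxcl10 and Ccl5.

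Below the filter stood 5 ligands that reached 1 TPM in some library. Cxcl14, a CXC chemokine of epithelium and stroma, was at 0.258, 0.177 and 0.149 TPM in wild-type and at 2.05, 1.48 and 0.679 TPM in overexpression libraries. Ccl12, a mouse ligand of Ccr2, was listed at 0, 0.549 and 0.461 TPM and at 1.74, 1.89 and 0.426 TPM. Ccl17, a ligand of Ccr4, was listed at 0, 0 and 0.247 TPM and at 0.619, 0.947 and 1.03 TPM. For Cxcl14 and Ccl17 every overexpression library lay above every wild-type one, and for Ccl12 the third overexpression library fell among the wild-type ones. With no filter on low genes, limma gave an adjusted p of 0.265 for Cxcl14, 0.265 for Ccl17 and 0.386 for Ccl12. Cxcl2, a neutrophil attractant like Cxcl1, reached 1 TPM only in overexpression replicate 1, at 2.05 TPM, and Cxcl17 only in overexpression replicate 3, at 1.20 TPM. Just above the filter stood Ccl4 with a mean of 1.41 TPM over the 6 libraries, and just below it Cxcl2 with 0.931 and Ccl12 with 0.844 TPM.

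The other 21 of 39 ligands stayed below 1 TPM in every library. Ccl1, Ccl8, Ccl26, Ccl27b and Xcl1 were listed at 0 in all 6. Ccl20, which attracts cells with Ccr6, reached 0.764 TPM, and the neutrophil attractant Cxcl5 reached 0.703 TPM. The interferon-induced Cxcl9 reached 0.437 TPM and Cxcl11 0.196 TPM. Ccl28 reached 0.387, Ccl27 0.348, Cxcl3 0.260, Ccl24 0.218, Cxcl15 0.207, Ccl19 0.179, Ccl11 0.138, Cxcl13 0.0899 and Ccl22 0.0200 TPM. The lymphoid ligands Ccl21a, Ccl21b and Ccl21c, which are near-identical copies, reached 0.297, 0.122 and 0.0568 TPM and cannot be told apart reliably. Read number cannot be recovered from TPM, so how many reads stand behind such values is unknown.

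Most signalling receptors stayed below 1 TPM, and the others had higher mean levels in overexpression cultures. Only 4 of 19, among them Cxcr4, Cx3cr1 and Ccr1, had a mean of at least 1 TPM. Their summed RNA with the other 15 was 11.4, 15.4 and 14.5 TPM in wild-type and 41.5, 44.7 and 16.9 TPM in overexpression libraries. Replicates 1 and 2 were far above wild type, and replicate 3 only just above it. All 4 had a positive log2 fold change, with a median of 1.05, where 6340 of all 13131 tested genes had a positive one. For Ccr1 and Cx3cr1 all overexpression libraries lay above all wild-type ones, where 14.3% of all tested genes did so.

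Cx3cr1, the fractalkine receptor of monocytes and resident macrophages, was at 2.32, 3.88 and 2.89 TPM in wild-type and at 16.3, 14.6 and 5.05 TPM in overexpression libraries. The groups did not overlap. The means were 3.03 ± 0.79 and 12.0 ± 6.05 TPM (SD, n = 3 each), and the log2 fold change was 1.56 ± 0.39 (SE; limma adjusted p = 0.131), or 2.04 ± 0.18 without overexpression replicate 3 (limma adjusted p = 0.00244). It lies at chr9:120048683-120068296.

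Ccr1, a receptor of Ccl3, Ccl5, Ccl6 and Ccl9, was at 1.46, 1.58 and 1.62 TPM in wild-type and at 5.89, 5.14 and 2.51 TPM in overexpression libraries. The wild-type libraries were close together and all overexpression libraries lay above them, with a log2 fold change of 1.05 ± 0.26 (SE; limma adjusted p = 0.131), or 1.35 without overexpression replicate 3 (limma adjusted p = 0.00676). Ccr1 lies on chromosome 9 at chr9:123962126-123968692, in a cluster that also holds Ccr2, Ccr3 and Ccr1l1, which stayed below 1 TPM.

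Cxcr4, the signalling receptor of Cxcl12, was at 5.18, 7.90 and 6.97 TPM in wild-type and at 12.7, 14.8 and 6.81 TPM in overexpression libraries. The third overexpression library fell inside the wild-type range, and the log2 fold change was 0.65 ± 0.27 (SE; limma adjusted p = 0.249), or 0.95 without that library (limma adjusted p = 0.0284). Beside the macrophage medians of 2.22, 2.03 and 0.69, the differences by library were 2.12, 1.97 and 0.61 for Cx3cr1, 1.43, 1.26 and 0.46 for Ccr1 and 0.85, 1.05 and 0.04 for Cxcr4, and the part of macrophage RNA was not tested.

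The atypical receptors held most of the receptor RNA in wild-type cultures. Ackr3, a scavenger of Cxcl12, was at 34.7, 36.0 and 30.2 TPM in wild-type and at 26.2, 26.6 and 44.1 TPM in overexpression libraries. Replicates 1 and 2 lay below and replicate 3 above all wild-type libraries, so the log2 fold change was -0.10 ± 0.20 (SE; limma adjusted p = 0.825) and turned positive, to 0.030 and 0.020, without overexpression replicate 1 or 2. Ackr4, a scavenger of Ccl19, Ccl21 and Ccl25 whose interval overlaps Acad11, was at 20.2, 18.9 and 20.1 TPM and at 13.6, 11.2 and 19.9 TPM. Replicate 3 fell inside the wild-type range, and the log2 fold change was -0.42 ± 0.18 (SE; limma adjusted p = 0.265), or -0.63 ± 0.11 without that library (limma adjusted p = 0.0243). Ackr1 was listed at 0 in all libraries and Ackr2 reached 0.0773 TPM.

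Ackr3 and Ackr4 together held 82.8%, 78.0% and 77.6% of receptor TPM in wild-type and 49.0%, 45.8% and 79.1% in overexpression libraries. The ratio of signalling to atypical receptor RNA was 0.207, 0.280 and 0.288 in wild-type and 1.04, 1.18 and 0.263 in overexpression libraries. The third overexpression library was within the wild-type range on both measures, and the other 2 were well outside it. The nearly equal receptor sums of the 3 overexpression libraries therefore held different receptors.

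**Figure D4:**
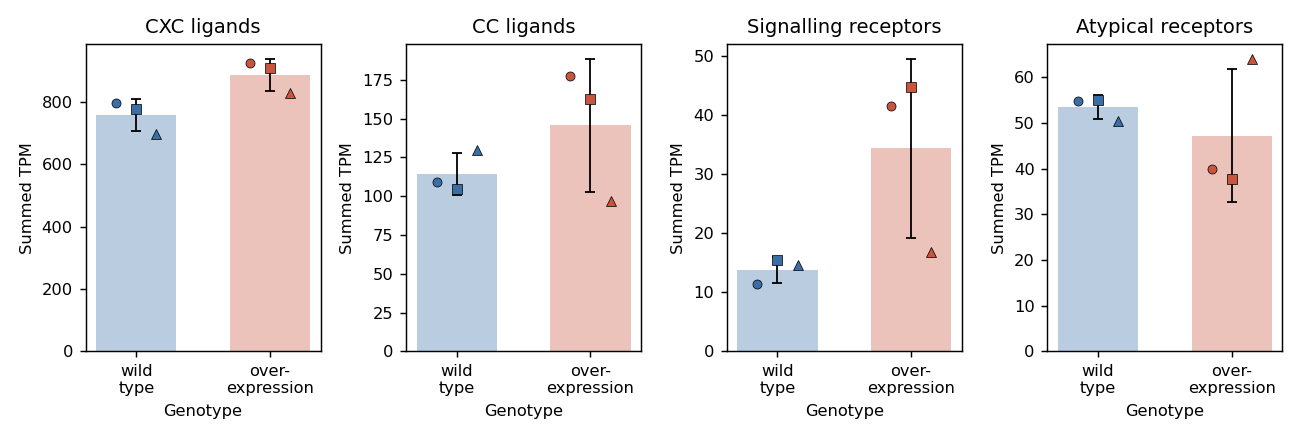
Summed TPM of CXC ligands, CC ligands, signalling receptors and atypical receptors by genotype; bars are means, error bars SD over 3 libraries, and circles, squares and triangles are mice 1, 2 and 3. Overexpression replicate 3 lies near or below the wild-type libraries for CC ligands, at 97.1 TPM, and above all others for atypical receptors, at 64.1 TPM.

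The remaining 17 of 23 receptors stayed below 1 TPM in every library. Ccr8 and Cxcr1 were listed at 0 in all 6, as was Ackr1. Ccr2, the receptor of Ccl2 on inflammatory monocytes, was at 0.0710, 0.138 and 0.0471 TPM in wild-type and at 0.0628, 0.0724 and 0.0210 TPM in overexpression libraries. Its groups overlapped. Ccr3, a receptor of eosinophils and other leukocytes, was at 0.0459, 0.0672 and 0.0929 TPM and at 0.510, 0.461 and 0.227 TPM, with every overexpression library above every wild-type one, and limma with no filter on low genes gave an adjusted p of 0.265. Ccr10 reached 0.637, Ccr6 0.544, the neutrophil receptor Cxcr2 0.432 and the T cell receptor of interferon-induced chemokines, Cxcr3, 0.235 TPM. Cxcr5 reached 0.211, Ccr9 0.196, Cxcr6 0.110, Ccr1l1 0.0819, Ccr7 0.0730, Xcr1 0.0448 and Ccr4 0.0313 TPM.

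Ligands and receptors were set side by side as 31 known pairs. The list is not complete: Ccl6 and Ccl9 with Ccr1, for example, were not in it. Both genes reached a mean of 1 TPM over the 6 libraries in 8 pairs, the ligand alone in 6, the receptor alone in 2 and neither in 15. The pairs in which only the ligand reached that mean included Ccl2 and Ccl7 with Ccr2, Cxcl1 with Cxcr2, Cxcl10 with Cxcr3, Ccl25 with Ccr9 and Ccl27a with Ccr10. Ackr4 reached that mean and Ccl19 and Ccl21a did not, but its ligand Ccl25, not set as a pair with it, was at 6.73 to 9.79 TPM.

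Among the 8 pairs with both genes at a mean of 1 TPM or more, the ratio of ligand to receptor RNA separated the groups for 1. Cx3cl1 over Cx3cr1 was 7.19, 4.57 and 7.03 in wild-type and 0.920, 1.05 and 3.33 in overexpression libraries. The exact permutation test, two-sided and run on log2 ratios, gave p = 0.1, the smallest that 3 against 3 can give, and 0.686 after Benjamini-Hochberg adjustment over the 8 pairs. Cxcl12 over Cxcr4 was 152, 97.6 and 98.5 in wild-type and 72.0, 61.1 and 120 in overexpression libraries (exact permutation p = 0.3), and Cxcl12 over Ackr3 was 22.8, 21.4 and 22.7 against 35.0, 33.9 and 18.6 (exact permutation p = 0.4). Ccl3 over Ccr1 stayed between 1.42 and 2.56 in all 6 libraries, with the groups interleaved.

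Genes that carry the receptor signal were examined as a list of 26, of which 24 were tested. None passed limma's adjusted threshold. At an unadjusted p under 0.05, 6 were higher and 0 lower, where 10.6% and 8.94% of all tested genes were. Vav1, an exchange factor of blood cells, was at 1.26, 1.77 and 1.72 TPM in wild-type and at 7.29, 5.97 and 3.00 TPM in overexpression libraries, a log2 fold change of 1.26 ± 0.27 (SE). Its groups did not overlap. Dock2, which drives leukocyte migration, had a log2 fold change of 1.19 and the haematopoietic GTPase Rac2 of 1.15. Each of the 3 had a limma adjusted p of 0.131. The abundant and widely expressed members differed little, with the G protein subunits Gnai2 at 911 and 851 TPM and Gnb1 at 559 and 553 TPM and the GTPase Rac1 at 470 and 473 TPM. The list median was 0.08, and without overexpression replicate 3, 5 passed as higher, where 3.99% of all genes did. Vav1, Dock2 and Rac2 are leukocyte genes, and the 15 tested macrophage markers, with a median of 1.66, moved with them. Their part was not tested.

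Genes that end the receptor signal went both ways. Of 12, 11 were tested and none passed, with 2 higher and 2 lower at an unadjusted p under 0.05, where 10.6% and 8.94% of all genes were. Of the 2 higher, Rgs1 passed the filter on low genes only through its overexpression libraries. Without overexpression replicate 3, limma called 3 higher (Rgs10, Rgs1 and Arrb2) and Rgs16 lower, where 3.99% and 2.31% of all genes passed. Rgs10, a brake on G proteins that is abundant in macrophages and microglia, was at 11.4 ± 1.91 and 32.9 ± 12.7 TPM (SD, n = 3 each; log2 fold change 1.38 ± 0.29 SE, limma adjusted p = 0.131). Rgs16, of the same family, was at 7.77 ± 0.84 and 3.73 ± 1.20 TPM (-0.92 ± 0.20 SE, limma adjusted p = 0.131). Grk2, the kinase that marks active receptors for arrestin, was at 109 ± 0.73 and 85.6 ± 6.67 TPM (-0.35 ± 0.07 SE, limma adjusted p = 0.131), and Arrb1, an arrestin, at 78.1 and 65.5 TPM. Rgs19 was at 48.8 and 46.8 TPM.

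Chemokine-like genes outside the symbol rule numbered 9, and 6 were tested. None passed, and at an unadjusted p under 0.05 Pf4 and Cmklr1 were higher, where 10.6% of all genes were. Both passed without overexpression replicate 3, where 3.99% did. Pf4, a CXC chemokine of platelets and macrophages, was at 3.97, 8.49 and 6.28 TPM in wild-type and at 27.4, 28.1 and 11.2 TPM in overexpression libraries (log2 fold change 1.63 ± 0.37 SE, limma adjusted p = 0.131). The groups did not overlap. Platelet markers summed to 6.54 to 7.21 TPM in wild-type and 4.63 to 7.62 TPM in overexpression libraries, and the macrophage medians were 2.22, 2.03 and 0.69 (log2) in overexpression replicates 1, 2 and 3. The part of neither cell type in the Pf4 value was tested. Cmklr1, the chemerin receptor, was at 4.88 and 9.93 TPM (0.86 ± 0.25 SE, limma adjusted p = 0.152) and the atypical-like receptor Ccrl2 at 3.49 and 2.47 TPM (-0.37, limma adjusted p = 0.314). The cytokine Mif was at 344 and 326 TPM, Cmtm3 at 69.2 and 65.7 TPM and Cklf at 17.2 and 19.5 TPM.

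Genes that cleave or present chemokines, mostly of heparan sulphate, numbered 20 with 19 tested and a median of -0.02. None passed with all libraries, and Gpc1 alone passed, as higher, without overexpression replicate 3, where 3.99% of all genes did. The 5 with an unadjusted p under 0.05, where 10.6% of all genes were higher, were core proteins with higher levels in overexpression cultures, the syndecans Sdc1, Sdc2 and Sdc4 and the glypicans Gpc1 and Gpc6. Sdc2 was at 55.7 ± 5.56 and 72.3 ± 5.03 TPM (SD, n = 3 each; log2 fold change 0.37 ± 0.09 SE, limma adjusted p = 0.131), Gpc1 at 7.28 and 15.8 TPM (0.94, limma adjusted p = 0.151) and Gpc6 at 35.3 and 42.2 TPM (0.25, limma adjusted p = 0.197). The sulphatases Sulf1 and Sulf2 were at 545 and 485 TPM and at 179 and 173 TPM, and Sdc3 at 259 and 257 TPM.

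Of 20 genes of the pathways that induce chemokines, among them the NF-kB inhibitors Nfkbia and Tnfaip3, 17 were tested and none passed. At an unadjusted p under 0.05, 3 were higher and 3 lower, where 10.6% and 8.94% of all genes were. Without overexpression replicate 3, limma called Tnfrsf1b and Tnf higher and Rela lower, where 3.99% and 2.31% of all genes passed. Rela, the NF-kB subunit, was at 233 ± 23.3 and 168 ± 17.7 TPM (SD, n = 3 each; log2 fold change -0.47 ± 0.10 SE, limma adjusted p = 0.131). The TNF receptor gene Tnfrsf1a was at 199 and 169 TPM (-0.24 ± 0.06 SE, limma adjusted p = 0.131) and Irf1 at 24.4 and 19.0 TPM (-0.34 ± 0.09 SE, limma adjusted p = 0.133). For all 3, every overexpression library lay below every wild-type one. Of the 17 tested, 4 did so and 2 lay above in the same way, where 12.9% and 14.3% of all tested genes did. The interferon receptor gene Ifngr1 was at 93.1 and 86.2 TPM. The cytokine genes Il1a and Il1b were near 0, with Il1b at most 0.108 TPM. The 3 with higher levels were Tnfrsf1b, Myd88 and Tnf, of which Tnf passed the filter on low genes only through its overexpression libraries. It was at 0.59, 0.45 and 0.42 TPM in wild-type and at 2.98, 2.62 and 0.48 TPM in overexpression libraries.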

How the data were processed

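RNA of 3 wild-type and 3 Adamts7 overexpression mice was analysed; the footprint scores of 2 mice per genotype hold no value per gene and were not used here. A single batch label covers all libraries, and no batch could be set against another. The authors deposited gene TPM values (kallisto, per the labels), and the submitters' processing notes name mm10. Version, annotation, strand setting and depth were not stated. Each column sums to 1000000. kallisto divides reads among similar transcripts, so near-identical copies and overlapping genes are uncertain, and TPM is relative within a library.

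The genotype label gave the group and the title's mouse number the replicate. log2(TPM + 1) values of the 13131 genes averaging 1 TPM or more were fitted with lmFit and a trended eBayes (limma 3.58.1, R 4.3.3; two-sided), p-values were adjusted by Benjamini-Hochberg against 0.05, and the code was checked on simulated data. Fold changes on that scale understate changes of low genes. Ratios of pairs were compared with exact permutation tests in Python 3.11.15 with numpy 2.4.6 and pandas 2.3.3. Positions and promoters are from RefSeq tables of GRCm38.p6, which place 61 of the 62 members (not Ccl27). Members with 1 TPM in any library were named, and for each other list 3 genes by p and 3 by mean TPM; promoters were planned for the 2 tested ligands with the smallest p, and Ccl9 stood in for Ccl2, which has no entry. Sdc1, Sdc4, Rgs1, Arrb2, Il1a, Il1b, Tnf, Tnfrsf1b, Myd88 and the promoters of Ccl3 and Cxcl10 were added after their values were seen. Results for 1 member are not reported here, though it stays in counts and sums. The members and lists were chosen with earlier results of these data known. Alternatives were pseudocounts of 0.1 and 0.5, filters, scalings, library weights, a replicate block and leaving out each library.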

Additional observations from a re-analysis of the deposited data

How the results depend on the processing

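Over 14 alternatives, 257 fold changes of tested members were recomputed, of which 229 kept both direction and side of the threshold, 21 passed it where they had not before and 7 changed sign. The sign changes were all in genes near 0: Ccl27a, -0.17 to 0.13 over all alternatives, went from -0.04 to 0.13 with library quality weights and to 0.043 and 0.059 without wild-type replicate 2 or overexpression replicate 3. Cxcl1, -0.25 to 0.20 over all, went from -0.06 to 0.20 and 0.090 without wild-type replicate 3 or overexpression replicate 2, and Ackr3, -0.34 to 0.03 over all, from -0.10 to 0.030 and 0.020 without overexpression replicate 1 or 2. The number of members called was 0 in the report, 12 with library quality weights and 9 without overexpression replicate 3, and ranged from 0 to 9 over the libraries left out. The number of all genes called was 2, against 2728 with library quality weights and 1 with a mean of at least 5 TPM, and ranged from 1 to 828 over the libraries left out. The highest of these was without overexpression replicate 3. Library weights gave overexpression replicate 1 a weight of 5.66 and the other libraries 0.278 to 1.54. With no filter on low genes, the median log2 fold change was 0.064 for ligands and 0.028 for receptors with more low genes tested, and with a mean of at least 5 TPM the receptor median was 0.28 with fewer tested. The ligand median ranged from 0.20 to 0.29 and the receptor median from 0.52 to 1.15 over the libraries left out.

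With the mouse number as a replicate block, 0 members and 1 of all genes were called. Same-numbered libraries deviated from their group means with correlations over genes of -0.022, 0.058 and 0.018, and 1 of 3 wild-type libraries correlated best with its own number. No pairing by number was seen, but with 3 libraries a group these correlations cannot exclude one. The number of members below 1 TPM in both genotypes was 40, and 38 were below it in every library.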
